A study of Homo sapiens with 8 samples.

Results

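The zinc finger genes of 19q13.41 are 40 protein-coding genes whose symbols start with ZNF and whose transcription start sites (TSS) lie in chr19:51000001-54500000 of the hg38 assembly, 3.5 Mb near the end of the long arm of chromosome 19. They were taken by symbol and position from the GENCODE release 44 annotation, out of 19962 protein-coding genes on chromosomes 1 to 22 and X, and the rule uses symbol and position only. The other 71 protein-coding genes that start in the interval are called neighbours here. Native chromatin immunoprecipitation with sequencing (ChIP-seq) had been run in SUM159, an established human triple-negative breast cancer cell line of mesenchymal type, for H3K9me3 and H3K4me3, which are trimethylated lysines of histone H3. All cells carried the pLV-KRAB lentiviral vector, which expresses a catalytically dead Cas9 fused to the KRAB repressor domain. The All gRNA cells also carried 4 guide RNAs against the promoter of ZEB1, a gene on chromosome 10, whereas the No gRNA cells carried the empty vector without a targeting guide. There were 2 libraries for each condition and mark, labelled as biological replicates, 8 in all, from puromycin-selected pools of cells of 1 line. Since each library pools cells, a mark on more cells or alleles and a denser mark in each cell cannot be told apart.

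Most genes of this cluster encode KRAB zinc finger proteins, the largest family of human transcription factors, in which a row of C2H2 zinc fingers, usually encoded by 1 long last exon, reads DNA and the KRAB domain recruits TRIM28 (KAP1). TRIM28 in turn brings SETDB1, the methyltransferase that writes H3K9me3, and many of these proteins silence transposable elements in this way. The zinc finger gene clusters of chromosome 19 are themselves known for broad H3K9me3 over their bodies and finger exons, whereas H3K4me3 marks the start sites of active or poised promoters.

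The repeated structure of the genes was visible in their sequence. In all 40 genes of the canonical transcripts the longest coding exon was also the last coding exon, 509 to 2768 bases long with a median of 1614.5. The run of 12 bases held by most of these exons was ACTGGAGAGAAA, which encodes part of the linker between neighbouring fingers. It was present on the coding strand in 36 of 40 genes, in 198 copies with a median of 5 per gene. Copies followed each other at a distance of exactly 84 bases, the length of 1 finger with its linker, in 96 of 162 neighbouring pairs, and at a multiple of 84 bases in 161 of 162. The same 12 bases were found in the longest coding exon of 40.5% of the 476 ZNF genes elsewhere and of 0.19% of the 19446 other genes, whose exons were shorter (median 300 bases), and in 1.33% of all genes. On the opposite strand no gene held them. To show what the H3K9me3 signal lies on, 1 unit of 84 bases is given for 5 genes named in the results, written 5′ to 3′ on the coding strand from the reference genome (hg38) with the linker in capitals.
ZNF845: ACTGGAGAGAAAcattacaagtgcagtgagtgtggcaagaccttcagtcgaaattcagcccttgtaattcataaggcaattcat
ZNF528: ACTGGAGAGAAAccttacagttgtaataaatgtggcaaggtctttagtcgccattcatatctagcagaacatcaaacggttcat
ZNF808: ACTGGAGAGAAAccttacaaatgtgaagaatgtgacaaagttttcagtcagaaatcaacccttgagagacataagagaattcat
ZNF816: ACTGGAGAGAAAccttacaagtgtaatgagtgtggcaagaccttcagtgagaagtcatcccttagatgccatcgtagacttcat
ZNF836: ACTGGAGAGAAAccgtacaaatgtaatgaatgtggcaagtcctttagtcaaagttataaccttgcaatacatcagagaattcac
These units lie at chr19:53351555-53351638, plus strand, chr19:52415810-52415893, plus strand, chr19:52554180-52554263, plus strand, chr19:52950770-52950853, minus strand and chr19:52156711-52156794, minus strand. Against the ZNF845 unit, the other four shared between 59 bases (ZNF528) and 65 bases (ZNF816) of 84. ZNF845, with 19 copies, held the most. Because the exons resemble each other, reads from them can align to more than 1 gene, and how such reads were treated is not given in the sources used here, so a value over a single finger exon is less certain than the value over the whole cluster.

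The values came from lists of broad peaks called by the authors in each library, and the depth of sequencing is unknown. A covered share is the percent of a window that lies under peaks. The main values used peaks with a q-value (p-value adjusted for multiple testing) of at most 0.05, and the full lists, which reach down to p-values near 0.1, were used beside them. The 4 H3K9me3 lists held 321975 to 410355 peaks, of which 10551 to 36131 on the main chromosomes passed the q threshold, and No gRNA replicate 1 had the fewest. At ZEB1, the targeted gene, the full lists covered 79.4% and 82.0% of the TSS ± 10 kb window in the All gRNA libraries and 4.57% and 1.33% in the No gRNA libraries. At q ≤ 0.05 the same window was covered at 22.8% and 67.3% against 0% and 0%. Among the marker genes of the cell type, H3K4me3 at q ≤ 0.05 lay within 1 kb of the start of VIM in 3 of 4 libraries, CD44 in 2 and FN1 in 1. It lay at CDH1, EPCAM, KRT19 and ESR1 in none and at GATA3 in 1. In the full lists it lay at each of these genes but ESR1 in every library. VIM and FN1 had 100% of the window, CDH1 24.2% to 93.6%, EPCAM 48.7% to 100% and KRT19 29.1% to 99.0%. The epithelial markers were thus without H3K4me3 only at q ≤ 0.05. The names under which 2 of the 4 H3K4me3 lists were deposited (labelled All gRNA replicate 2 and No gRNA replicate 1) give the other condition, and at ZEB1 the libraries labelled All gRNA replicate 2 and No gRNA replicate 2 were covered by H3K4me3 at 100% and the other two at 0%. H3K4me3 libraries are therefore given by their labels, and no direction between conditions is drawn from them.

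Most of the stretch that holds the zinc finger genes lay under H3K9me3. From the first base of ZNF175 to the last base of ZNF331 this stretch, called the block here, spans 2.01 Mb (chr19:51571283-53580269) and holds 14 neighbours. H3K9me3 in the full lists covered 94.6% and 94.4% of the block in the All gRNA libraries and 91.3% and 90.6% in the No gRNA libraries. All 4 libraries shared 85.2% of its bases, and 1.94% lay under no peak in any library. Apart from ZNF175, whose start is the edge of the block, no start site of a zinc finger gene fell in an uncovered stretch of 1 kb or more. Only 0% to 4.05% of TSS ± 1 kb of ZNF175 was covered in any library. Chromosome 19 as a whole was covered at 42.0% to 44.4%. The mark did not follow the limits of the block. Between 610 and 700 kb from the start of the interval, in the part that follows ZNF175, the full lists covered 8.87% to 87.5% of each 10 kb window. The window at 1200 kb, over PPP2R1A, had 48.7%, 29.3%, 50.8% and 20.2% in All gRNA replicates 1 and 2 and No gRNA replicates 1 and 2, and at q ≤ 0.05 it was at 0% in all 4. Past the last base of ZNF331, windows stayed at 89.9% or more in every library to 2760 kb, and at 2770 kb had 87.6%, 71.5%, 57.8% and 65.3%. The plot along the interval shows these gaps and the telomeric extension.

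**Figure D1:**
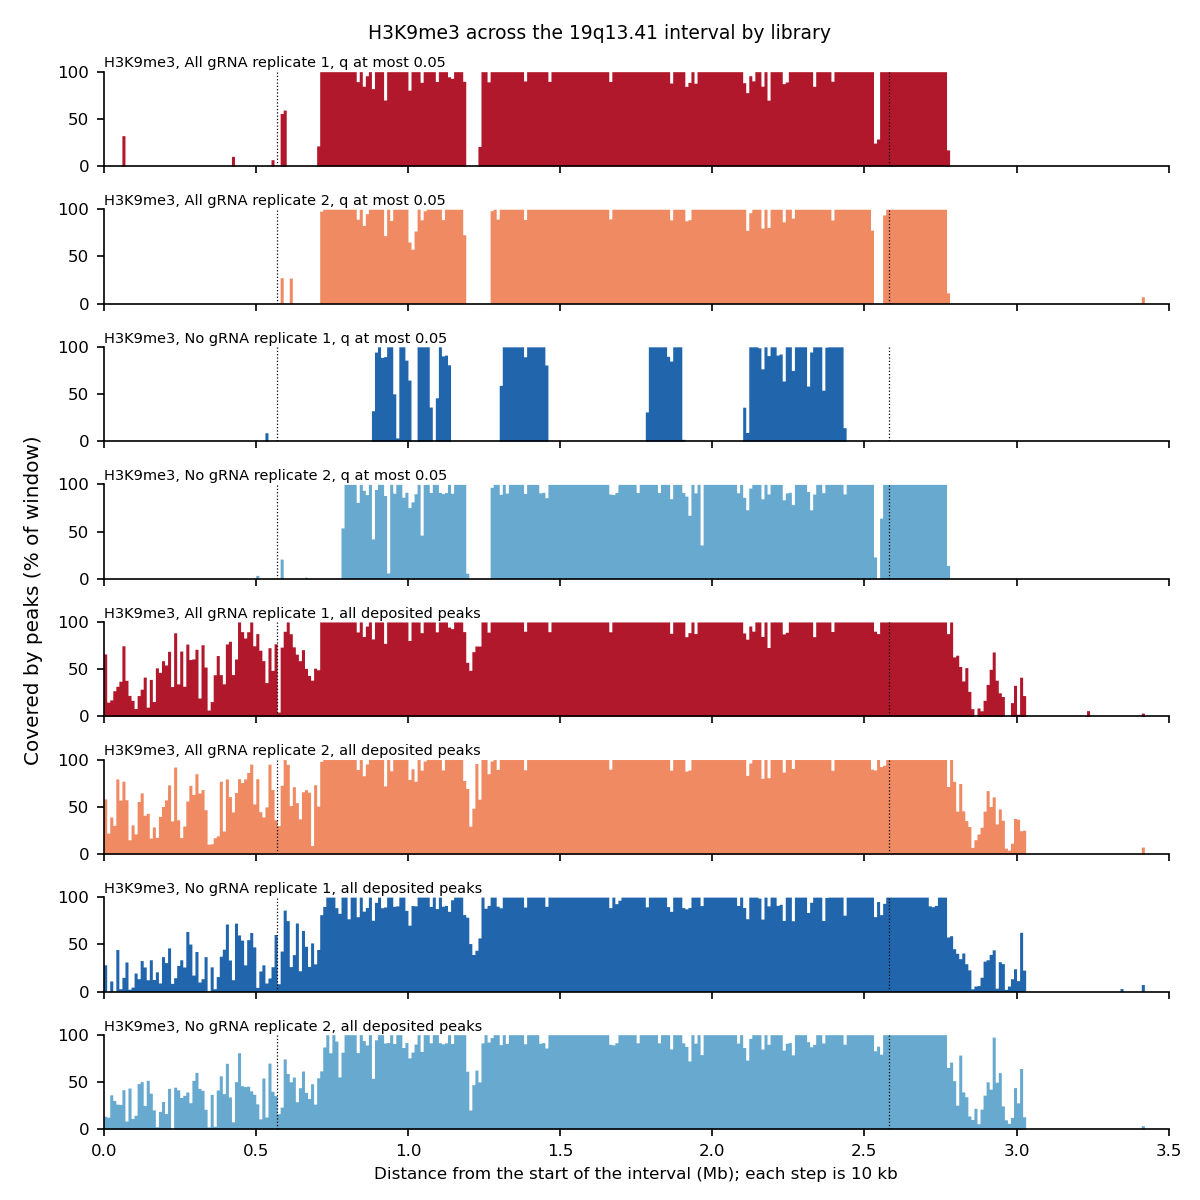
Share of each 10 kb window (y axis, percent) under H3K9me3 peaks against the distance from the start of the interval (x axis, Mb), for each of 4 libraries at q ≤ 0.05 (upper 4 rows) and in the full lists (lower 4 rows); dotted lines mark the first and last base of the 40 genes. All 4 libraries cover in the full lists 90.6% to 94.6% of the stretch between the lines, whereas at q ≤ 0.05 No gRNA replicate 1 keeps 37.1% of it.

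The peaks over the 40 gene bodies were among the longest in each list. There were 33 and 31 such peaks in the All gRNA libraries and 58 and 62 in the No gRNA libraries, with median lengths of 39911, 26711, 16388 and 15068.5 bases, against 929 to 1133 bases for all peaks of a list. The longest spanned 283668 bases, in All gRNA replicate 2. Many genes lay under the same peak. In the 4 libraries 38, 38, 30 and 36 of the 40 genes shared a peak with at least 1 other zinc finger gene, and up to 7 genes lay on 1 peak, so the 40 genes are not 40 separate measurements.

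At q ≤ 0.05 the mean share of TSS ± 10 kb under H3K9me3 over the 40 genes was 94.3% and 93.1% in the All gRNA libraries and 52.0% and 88.4% in the No gRNA libraries. Over the gene bodies it was 95.0%, 93.5%, 48.1% and 90.9% in the same order. No gRNA replicate 1 stood apart from the other 3 libraries, with 12 of 40 start windows and 15 of 40 gene bodies at 0%. For all genes the means of TSS ± 10 kb were 2.76%, 2.66%, 1.07% and 3.18%. The 40 genes reached in the full lists 95.3%, 95.7%, 92.9% and 92.4%, beside 12.9%, 14.05%, 13.8% and 15.1% for all genes.

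Other zinc finger clusters of chromosome 19 were covered less. At q ≤ 0.05 and in the order of libraries above, the mean TSS ± 10 kb share was 74.4%, 79.0%, 57.1% and 72.3% over the 37 ZNF genes of 19p12. It was 67.8%, 67.1%, 29.2% and 62.0% over the 48 of 19p13, and 56.3%, 54.6%, 32.0% and 51.4% over the 65 between 19q13.1 and 19q13.3. The 59 ZNF genes between the interval and the telomere had 55.2%, 53.8%, 30.8% and 52.0%, and the 267 ZNF genes of other chromosomes had 6.53% to 14.9%. The genes of 19q13.41 were thus the highest of these lists in 3 of 4 libraries. In No gRNA replicate 1 the 19p12 genes were higher (57.1% against 52.0%).

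**Figure D2:**
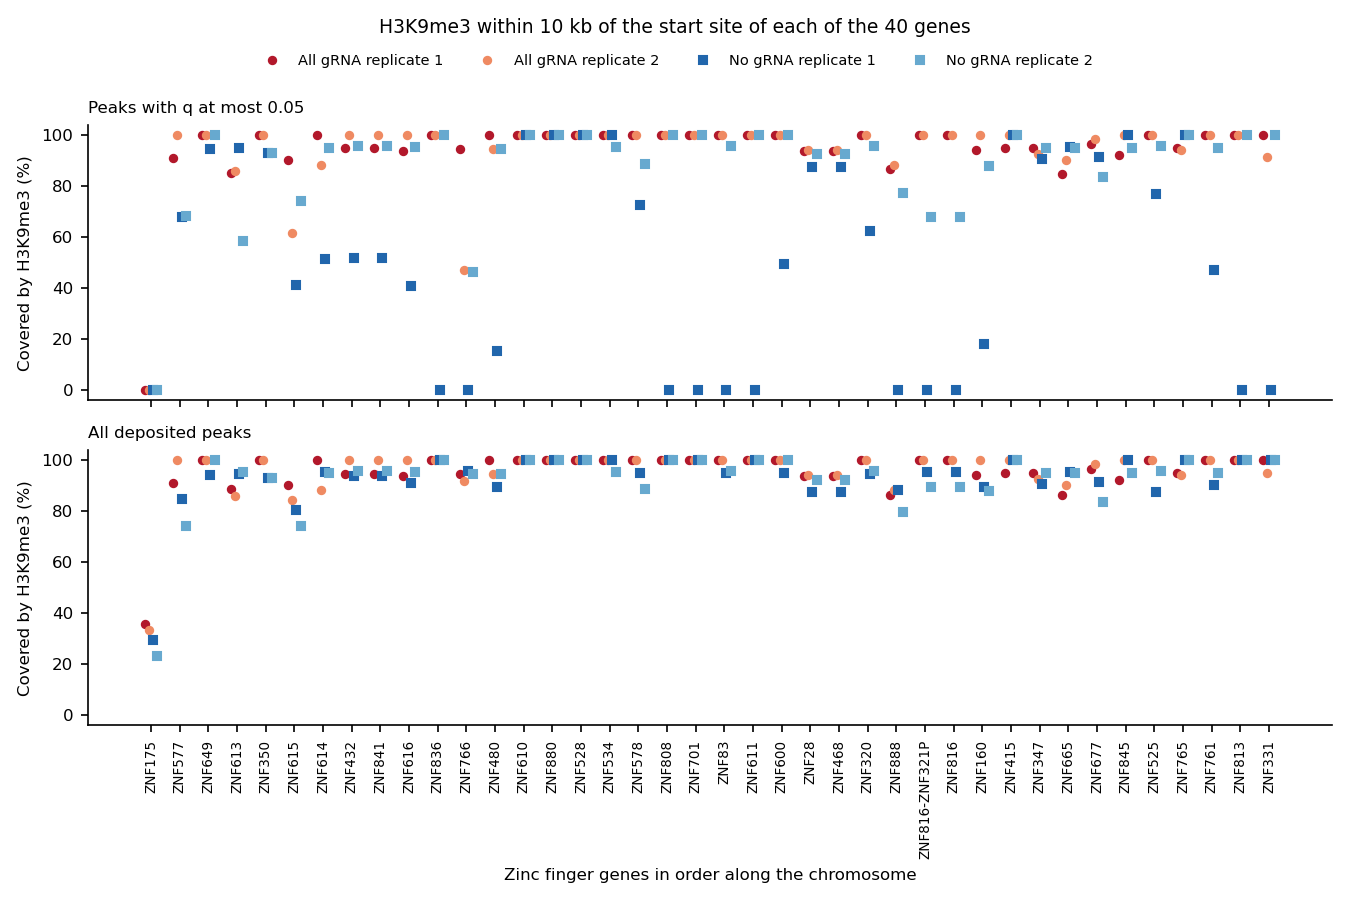
Share of the TSS ± 10 kb window under H3K9me3 peaks (y axis, percent) for each of the 40 genes in chromosomal order (x axis), at q ≤ 0.05 (upper) and in the full lists (lower); each point is 1 library, circles All gRNA and squares No gRNA. At q ≤ 0.05, 12 genes are at 0% in No gRNA replicate 1 alone or, for ZNF175, in all 4 libraries, and in the full lists every gene but ZNF175 lies at 74.1% or more in every library.

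The genes differed most in No gRNA replicate 1, where gene body shares at q ≤ 0.05 ran from 0% in 15 genes to 100% in 6. ZNF528, ZNF610, ZNF347, ZNF28 and ZNF845 had the highest mean gene body share at q ≤ 0.05. ZNF528 (ENSG00000167555.14, chr19:52397849-52418412, plus strand) and ZNF610 (ENSG00000167554.15, chr19:52336243-52367778, plus strand) were covered at 100% over the body and over TSS ± 10 kb in every library at either setting. ZNF347 was covered over its body at 97.2%, 100%, 100% and 100% in All gRNA replicates 1 and 2 and No gRNA replicates 1 and 2. ZNF28 followed with 100%, 100%, 98.5% and 98.6%, and ZNF845 with 98.1%, 100%, 100% and 97.4%. None of these 5 genes separated the conditions by more than a few points.

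ZNF175, ZNF331, ZNF888, ZNF614 and ZNF577 were lowest. In ZNF888, ZNF614 and ZNF577 the low mean came from No gRNA replicate 1, whereas ZNF331 was low in All gRNA replicate 2 as well. The body of ZNF331, a gene known to be imprinted, was covered at 75.8%, 46.0%, 0% and 65.0% at q ≤ 0.05, but at 96.4%, 94.3%, 91.7% and 91.8% in the full lists. ZNF888 had 85.9%, 87.8%, 0% and 76.3% at q ≤ 0.05, and 85.9%, 87.8%, 87.7% and 78.9% in the full lists. ZNF614 was at 1.75% and ZNF577 at 4.20% in No gRNA replicate 1, and the lowest value of both in the other 3 libraries was 78.4%.

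ZNF175 (OTK18, ENSG00000105497.8, chr19:51571283-51592510, plus strand), the gene at the centromeric edge of the block, was the exception. Its TSS ± 10 kb window held no H3K9me3 at q ≤ 0.05 in any library, and 35.7%, 33.4%, 29.3% and 23.2% in the full lists. Its body was covered at 38.0%, 12.9%, 0% and 9.84% at q ≤ 0.05. Within that body the finger exon (chr19:51586627-51588464) was covered at 100%, 100%, 0% and 97.1%, and in the full lists at 100%, 100%, 95.6% and 97.1%. H3K9me3 thus lay on the finger exon of ZNF175 while its start window of ± 1 kb had 0% to 4.05% even in the full lists. That start was under H3K4me3 at 84.8%, 67.5%, 0% and 79.2% at q ≤ 0.05. Its finger exon held no copy of the 12-base linker run.

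Over the 40 genes together the finger exon was also above the start site on average. The longest coding exons in the full lists were covered at means of 99.9%, 99.7%, 99.0% and 99.0%, and the TSS ± 1 kb windows at 88.6%, 90.9%, 76.7% and 85.7%. The exon was above the start by 11.2, 8.75, 22.3 and 13.28 points. At q ≤ 0.05 the same differences were 11.4, 9.58, 2.00 and 15.4 points, so the direction of this mean was the same in 4 of 4 libraries at either setting. Over all genes the direction was the same, with 2.54, 2.30, 2.92 and 3.78 points in the full lists and 0.354 to 0.890 points at q ≤ 0.05. The 13 genes without H3K4me3 in any library at q ≤ 0.05, described further on, did not share it. Their exon minus start differences were 3.33, -0.38, -1.39 and -2.15 points in the full lists and 3.33, -0.38, -14.7 and -2.15 points at q ≤ 0.05. In the 18 genes with H3K4me3 in 2 or more libraries they were 19.8, 12.2, 33.1 and 19.5 points in the full lists. In No gRNA replicate 1 the exons themselves were covered at 49.8% at q ≤ 0.05, with 20 of 40 at 0%. In the profile around the start, H3K9me3 of that library in the full lists dipped to 68.7% in the first kb of transcription, against 96.0% between 6 and 5 kb upstream.

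**Figure D3:**
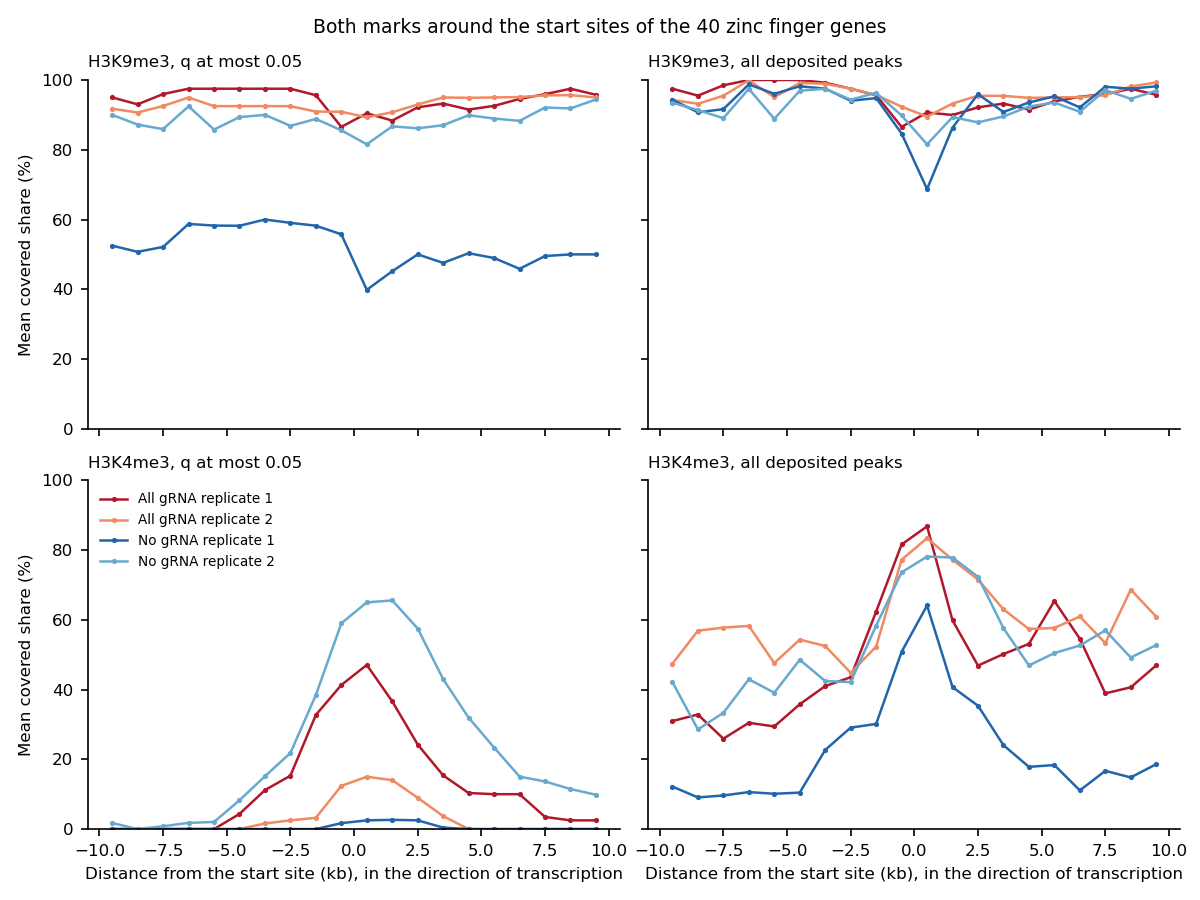
Mean share of 1 kb bins (y axis, percent) under H3K9me3 (upper) and H3K4me3 (lower) peaks against distance from the start site in the direction of transcription (x axis, kb), over the 40 genes; each line is 1 library by its label, at q ≤ 0.05 (left) and in the full lists (right). H3K4me3 is highest within 2 kb downstream of the start (65.0% in the first kb in No gRNA replicate 2 at q ≤ 0.05), where H3K9me3 in the full lists is 68.7% to 90.7%.

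The comparison of conditions asked whether H3K9me3 over these genes, which no guide targets, differed between All gRNA and No gRNA cells. A gene was called when the lowest library of 1 condition lay at least 25 points above the highest of the other. With 2 libraries against 2, the exact two-sided permutation test cannot give a p below 0.33. At q ≤ 0.05, 2 of 40 genes were called higher in All gRNA over TSS ± 10 kb, ZNF816 and the readthrough gene ZNF816-ZNF321P, where 0.225% of all genes were called. Their start windows overlap and the values were the same, 100% and 100% against 0% and 67.9%. None was called lower (0.00501% of all genes), and over the gene bodies none was called in either direction (0.160% and 0.01% of all genes). In the full lists none of the 40 genes was called over TSS ± 10 kb (higher 0.180%, lower 0.0351% of all genes) or over the body (higher 0.401%, lower 0.240%), and ZNF816 had 100%, 100%, 95.5% and 89.5%.

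The mean difference over the 40 genes, All gRNA minus No gRNA, was 23.4 points for TSS ± 10 kb and 24.8 points for gene bodies at q ≤ 0.05. Without No gRNA replicate 1 it was 5.22 and 3.36 points, and in the full lists it was 2.83 and 2.32 points. For the whole interval the covered share was 56.6% and 54.7% against 21.3% and 51.6%, a difference of 19.21 points with a pooled SD of 15.2 (exact permutation test, p = 0.33, n = 2 against 2). In the full lists it was 70.6% and 70.9% against 64.3% and 65.8%, a difference of 5.71 points with a pooled SD of 0.736 and the same smallest p of 0.33. The order of the conditions was thus the same at both settings, but the size at q ≤ 0.05 depended mostly on No gRNA replicate 1.

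No gRNA replicate 1 had peaks over the genes that fell just short of the threshold. Weighted by length, the −log10 q of its peaks over the 40 gene bodies averaged 1.27, or a q of 0.054, whereas the other libraries averaged 2.06, 1.99 and 1.91. Only 39.3% of its peak bases over the genes passed q ≤ 0.05, against 99.2%, 96.9% and 98.1% in All gRNA replicates 1 and 2 and No gRNA replicate 2. Its list covered 97.6 Mb of the genome at that threshold and the other three 188 to 238 Mb.

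When each library was instead cut at the q-value at which its peaks covered the same length of genome, 97.6 Mb, both No gRNA libraries were lower. The limits were q ≤ 0.0167 and q ≤ 0.0165 for the All gRNA libraries, q ≤ 0.05 for No gRNA replicate 1 and q ≤ 0.00788 for No gRNA replicate 2, which thus met the strictest limit. The mean TSS ± 10 kb share became 93.2% and 88.1% against 52.0% and 21.97%. In the All gRNA libraries 35 and 32 of the 40 windows were covered at 90% or more, and in the No gRNA libraries 13 and 5. At that setting 19 of 40 genes were called higher in All gRNA over TSS ± 10 kb and 17 of 40 over the body (0.306% of all genes in each case), and none was called lower (0.0551% and 0.0501% of all genes). ZNF808, whose loss causes agenesis of the pancreas in people, and ZNF611, ZNF83 and ZNF813 had 100% and 100% against 0% and 0% over TSS ± 10 kb. ZNF528 stayed at 100% in every library, and ZNF610 had 100%, 100%, 100% and 0%. In the other chromosome 19 clusters 6.15% to 10.4% of the ZNF genes were called higher over TSS ± 10 kb by the same cut.

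Fold enrichment, the height of a peak over its local background as the peak caller gave it, needs no q threshold. It exists only for bases under peaks of the full lists, which end at p-values near 0.1. Weighted by length over the gene body in the full lists, its median over the 40 genes was 2.26 and 2.19 in the All gRNA libraries and 2.11 and 2.095 in the No gRNA libraries. The median difference, All gRNA minus No gRNA, was 0.12, with a range from -0.03 (ZNF615) to 0.27 (ZNF888). In 31 of 40 genes both All gRNA libraries lay above both No gRNA libraries, and in 0 both lay below. Among the 10307 genes with a peak in all 4 libraries 9.16% lay above and 30% below. ZNF888 had folds of 2.29 and 2.169 against 1.98 and 1.95, and ZNF347 had 2.38 and 2.34 against 2.11 and 2.15. ZNF528 did not separate, with 2.31 and 2.19 against 2.30 and 2.21. The plot of fold by gene shows these small, repeated gaps, between genes that often share a peak.

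**Figure D4:**
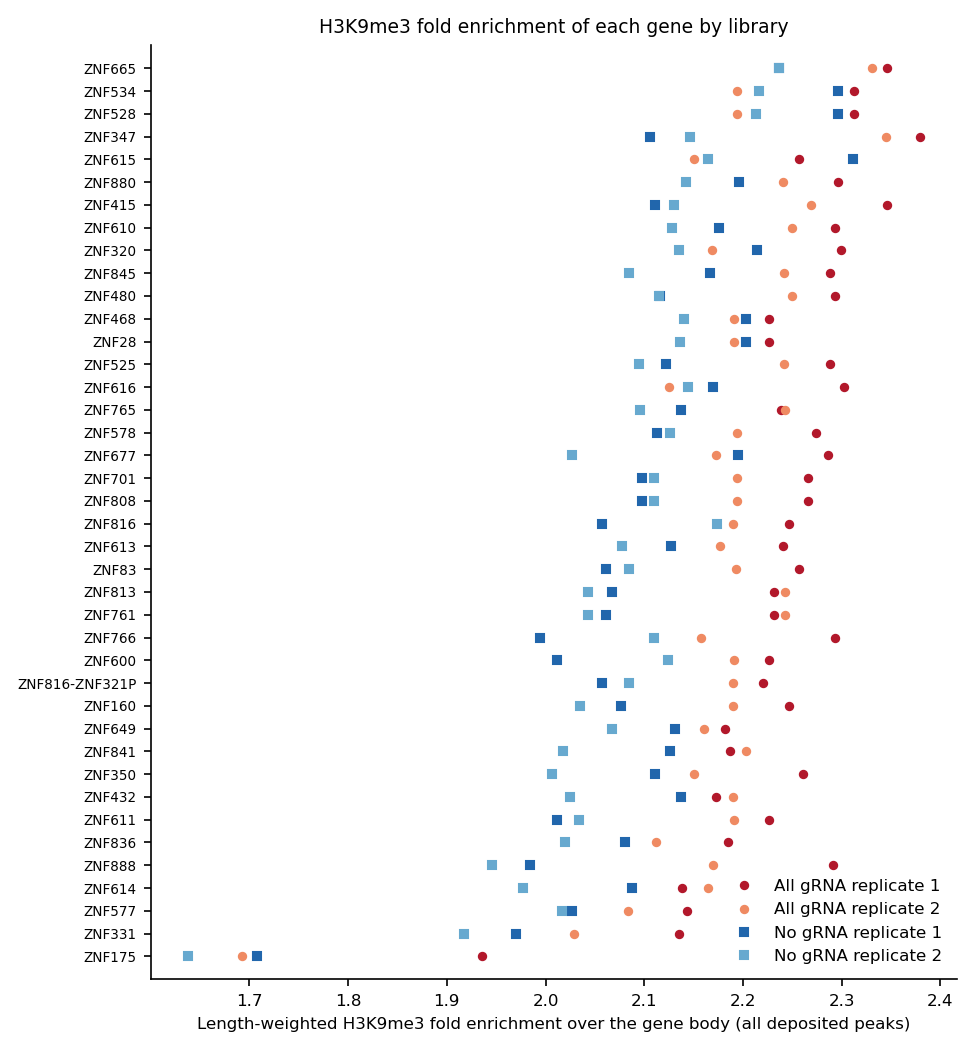
Length-weighted H3K9me3 fold enrichment over the gene body (x axis) for each of the 40 genes, ordered by their mean (y axis); each point is 1 library, circles All gRNA and squares No gRNA, full lists. Genes range from ZNF175 at the bottom (1.64 to 1.94) to ZNF665 at the top (2.24 to 2.35), and both circles lie to the right of both squares in 31 of 40 genes.

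The same ordering was seen in part in other clusters. Both All gRNA libraries lay above in 64.9% of 37 genes of 19p12, 62.1% of 58 between 19q13.1 and 19q13.3, 47.8% of 46 of 19p13 and 26.8% of 56 telomeric of the interval. The share was 77.5% in the 40 genes of 19q13.41, 15.9% in 195 ZNF genes of other chromosomes and 7.80% in 9831 other genes. Over all genes the median fold was 1.63 and 1.60 against 1.67 and 1.63, a median difference of -0.03, the opposite sign to the median of the genes of 19q13.41. No test of these shares was made, since genes of 1 cluster share peaks.

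Neighbours inside the block were covered as well. For the 14 of them the mean TSS ± 10 kb share in the full lists was 91.7%, 89.5%, 83.7% and 83.9%, whereas over all 71 neighbours it was 38.4%, 38.5%, 27.5% and 31.3%. HAS1, a hyaluronan synthase, and FPR2, a formyl peptide receptor, lie in the centromeric part of the block, and both were called higher in All gRNA over TSS ± 10 kb at q ≤ 0.05 with 100% and 100% against 0% and 0%. Without the threshold HAS1 had 100% and 100% against 90.6% and 87.8%, and FPR2 had 100% and 100% against 95.9% and 95.0%, and neither was called. FPR1 had 100% and 100% against 0% and 33.1% over its body at q ≤ 0.05, and FPR3 had 100%, 100%, 0% and 100%. PPP2R1A encodes a scaffold subunit of protein phosphatase 2A, and its outermost annotated start lies next to ZNF836. Around that start TSS ± 10 kb was covered at 100%, 100%, 0% and 100%, but the gene body at only 30.8%, 27.9%, 0% and 33.6%. The 10 kb window at 1190 kb from the start of the interval, inside the gene, had 0%, 0%, 0% and 5.89% at q ≤ 0.05.

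H3K4me3 divided the genes. Within 1 kb of the start at q ≤ 0.05, 18 of 40 genes had the mark in 2 or more of the 4 libraries, 9 in 1 library and 13 in none, and 0 had it in all 4. The 13 were ZNF610, ZNF880, ZNF528, ZNF534, ZNF578, ZNF701, ZNF320, ZNF415, ZNF347, ZNF665, ZNF677, ZNF765 and ZNF331. These are 45%, 22.5% and 32.5% of the genes, and across all genes the same shares were 35.0%, 19.8% and 45.2%. Without the threshold 26 of 40 genes had at least 25% of the window in every library. In the same lists 0 of 40 were under 25% in all 4, so the 13 lacked the mark only at q ≤ 0.05. The full H3K4me3 lists covered 623 to 933 Mb of the genome, and no share of all genes is given for these counts. They are therefore not read as particular to the 40 genes. The TSS ± 1 kb windows overlap in 3 pairs, ZNF432 with ZNF841, ZNF28 with ZNF468, and ZNF816-ZNF321P with ZNF816, so the genes of a pair are not separate starts. The annotated gene start and the start of the canonical transcript were more than 1 kb apart in 8 of the 40 genes, and at the canonical start ZNF701 (1 library) and ZNF765 (2 libraries) left the group of 13.

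The libraries differed widely. The mean H3K4me3 share of TSS ± 1 kb over the 40 genes at q ≤ 0.05 was 44.2% in replicate 1 and 13.7% in replicate 2 labelled All gRNA, and 2.099% and 62.0% in the pair with the No gRNA label. All genes followed the same order with 31.3%, 10.8%, 8.82% and 50.5%. In the full lists the 40 genes had 84.2%, 80.3%, 57.5% and 75.9%.

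ZNF836, ZNF808, ZNF816-ZNF321P, ZNF816 and ZNF613 had the highest mean H3K4me3. ZNF836 (ENSG00000196267.14, chr19:52153864-52171643, minus strand) had 100%, 100%, 0% and 100% of TSS ± 1 kb under H3K4me3 in the libraries labelled All gRNA replicates 1 and 2 and No gRNA replicates 1 and 2. ZNF808 (ENSG00000198482.14, chr19:52527652-52564464, plus strand) had 100%, 96.5%, 0% and 100%. ZNF816 (ENSG00000180257.14, chr19:52949379-52962911, minus strand) had 100%, 100%, 0% and 87.5%, and ZNF613 had 100%, 84.1%, 0% and 100%. In each of them the library labelled No gRNA replicate 1 was the low one.

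Both marks were found around the same starts. With at least 25% of TSS ± 10 kb under H3K9me3 and of TSS ± 1 kb under H3K4me3 in 3 or more of the 4 libraries of each mark, 6 of 40 genes (15%) carried both, against 0.155% of all genes. Other ZNF genes of chromosome 19 did so too, with 5 of 48 (10.4%) in 19p13, 5 of 65 (7.69%) between 19q13.1 and 19q13.3, 2 of 59 (3.39%) telomeric of the interval and 1 of 37 (2.70%) in 19p12. The 6 genes of 19q13.41 were ZNF649, ZNF613, ZNF836, ZNF808, ZNF816-ZNF321P and ZNF816. The start windows of ZNF816-ZNF321P and ZNF816 overlap, so they are not separate starts. H3K9me3 alone met its cut in 39 of 40 genes (97.5%), against 2.68% of all genes. H3K4me3 alone met its cut in 7 of 40, these 6 and ZNF175. In 2 or more libraries H3K4me3 met the 25% cut in 45% of the 40 genes and 34.8% of all genes. The contrast in both marks was thus mostly that of H3K9me3. In ZNF836 and ZNF808 the full lists put 100% of TSS ± 1 kb under H3K9me3 in every library. In ZNF816 the same window was covered at 100%, 100%, 55.3% and 47.5%. The marks were measured in separate immunoprecipitations of pooled cells, so one nucleosome or allele with both cannot be told apart from a mixture.

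Genes with H3K4me3 at q ≤ 0.05 had somewhat less H3K9me3 right at the start. In the full lists the mean TSS ± 1 kb share of H3K9me3 was 80.2%, 87.4%, 66.2% and 79.8% in the 18 genes with H3K4me3 in 2 or more libraries. In the 13 genes with no H3K4me3 at q ≤ 0.05 it was 96.2%, 100%, 99.3% and 100%. The finger exons of the same groups had 99.3% to 100% in the 18 and 97.9% to 99.6% in the 13 in the full lists. At q ≤ 0.05 the start windows gave 79.9%, 85.5%, 31.3% and 76.8% against 96.2%, 100%, 83.9% and 100%, lower in the 18 genes in 4 of 4 libraries. The finger exons at q ≤ 0.05 had 99.3% to 100% in the 18 and 97.9% to 99.6% in the 13 in 3 of 4 libraries, but in No gRNA replicate 1 they had 43.97% against 69.2%, lower in the 18 as at the starts. Since genes share peaks, these are descriptions and were not tested.

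The CG content of the starts overlapped between these groups. Windows of TSS ± 1 kb held a median of 79 CG dinucleotides in the 18 genes with H3K4me3 in 2 or more libraries (range 45 to 115) and of 75 in the 13 genes with none (range 30 to 107). Over all genes the medians were 108 and 47 for the same groups, which held 6991 and 9027 genes. The 13 unmarked zinc finger starts thus had more CG than the usual unmarked start, and at canonical starts the medians were 78.5 (20 genes) and 80 (11 genes). RefSeq promoter sequences (GRCh38.p14) matched 33 of the 40 symbols. Their 250 bases before the start held a median of 17 CG, against 11 over 34961 promoters, of which 94.0% held at least 1.

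**Figure D5:**
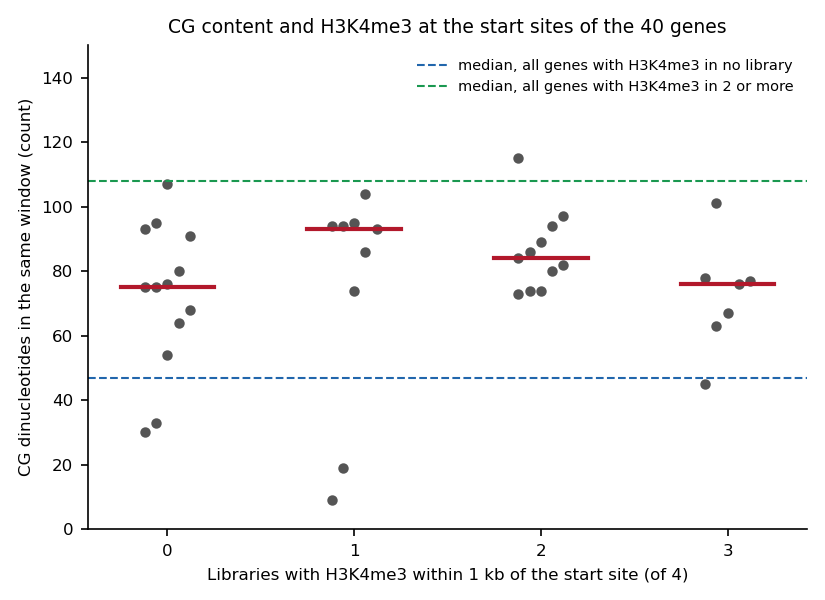
CG dinucleotides in TSS ± 1 kb (y axis, count) of each of the 40 genes against the number of the 4 libraries with H3K4me3 in that window at q ≤ 0.05 (x axis); points are genes, red bars medians, and dashed lines the medians of all genes with H3K4me3 in no library (47) and in 2 or more (108). The points of the 40 genes overlap at every number of libraries, and the median of the genes with none (75) lies between the dashed lines.

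The bases before the start are shown for 3 genes with both states, 5′ to 3′ on the coding strand with every CG in capitals. ZNF808 and ZNF836 carried both marks, and ZNF528 carried H3K9me3 at 100% in every library and no H3K4me3 at q ≤ 0.05.
ZNF808: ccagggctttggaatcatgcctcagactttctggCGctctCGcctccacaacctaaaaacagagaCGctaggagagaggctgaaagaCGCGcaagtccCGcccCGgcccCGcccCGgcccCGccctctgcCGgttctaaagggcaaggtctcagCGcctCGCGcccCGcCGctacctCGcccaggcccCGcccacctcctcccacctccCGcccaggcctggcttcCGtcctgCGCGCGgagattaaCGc
ZNF836: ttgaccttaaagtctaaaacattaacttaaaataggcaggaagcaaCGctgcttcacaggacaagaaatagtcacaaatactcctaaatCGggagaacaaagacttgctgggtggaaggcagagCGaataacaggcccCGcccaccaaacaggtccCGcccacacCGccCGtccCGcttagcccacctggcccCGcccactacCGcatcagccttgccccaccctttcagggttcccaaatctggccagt
ZNF528: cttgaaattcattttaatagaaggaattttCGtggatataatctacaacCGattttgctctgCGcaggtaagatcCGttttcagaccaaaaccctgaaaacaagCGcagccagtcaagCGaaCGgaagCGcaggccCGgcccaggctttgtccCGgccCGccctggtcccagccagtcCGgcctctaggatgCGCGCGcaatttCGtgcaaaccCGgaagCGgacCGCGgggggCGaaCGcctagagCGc
They lie at chr19:52527418-52527667, plus strand, chr19:52171622-52171871, minus strand and chr19:52397599-52397848, plus strand, with 24, 10 and 23 CG. In these bases ZNF528, without H3K4me3 at q ≤ 0.05, thus held more CG than ZNF836. Their TSS ± 1 kb windows differed little, with 68 and 67 CG. In the full lists H3K4me3 covered that window of ZNF528 at 89.2%, 66.7%, 26.1% and 78.1% in the libraries labelled All gRNA replicates 1 and 2 and No gRNA replicates 1 and 2. The promoter of ZNF175, with H3K4me3 and without H3K9me3 at its start, held 20 CG and is given for comparison.
ZNF175: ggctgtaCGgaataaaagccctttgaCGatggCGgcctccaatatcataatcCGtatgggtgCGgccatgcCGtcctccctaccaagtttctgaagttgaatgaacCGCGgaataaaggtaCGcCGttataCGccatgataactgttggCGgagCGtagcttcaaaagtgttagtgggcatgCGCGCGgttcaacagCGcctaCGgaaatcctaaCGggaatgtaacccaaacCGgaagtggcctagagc
It lies at chr19:51571033-51571282, plus strand, directly before the first base of the gene.

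No zinc finger gene was called for H3K4me3 at q ≤ 0.05 in either direction (0.135% of all genes higher and 1.62% lower under the All gRNA label). In the full lists 3 of 40 were called higher in those labelled All gRNA (1.78% of all genes) and none lower (2.21%). ZNF614 had 43.2% and 54.2% against 0% and 0%, ZNF880 had 36.5% and 37.9% against 0% and 0%, and ZNF677, a gene often silenced by promoter methylation in cancers, had 100% and 54.5% against 0% and 16.3%. ZNF880 and ZNF677 were among the 13 genes without H3K4me3 at q ≤ 0.05 and both had their starts fully under H3K9me3 in every library. With 2 of 4 labels open, these values are a description of the labelled libraries. Grouped by the deposited names instead, the values of the conditions overlap in each of the 3 genes called.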

How the data were processed

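Peak lists of 8 native ChIP-seq libraries of SUM159 cells (hg38) were used as deposited. Per the labels, the submitters' processing notes name bcl2fastq 2.17, Trimmomatic 0.33, Bowtie 1.1.2 and MACS2 2.1.0, whereas the methods of the study name fastp and bowtie2. Which of them made the lists, and whether input was the control, is not given in the sources used here. The authors called peaks in each library, and the deposited broadPeak lists hold a display score, a fold enrichment (a ratio over local background), −log10 p-values and −log10 q-values for each peak. They hold no counts, so depth is unknown, no interval for counting error was computed and no count model was used.

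Covered shares of TSS ± 10 kb, TSS ± 1 kb, gene bodies and longest coding exons were computed in Python 3.11.15 with numpy 2.4.6 for 19962 genes of GENCODE release 44, from peaks with q ≤ 0.05 and from the full lists, and figures were drawn with matplotlib 3.10.9. A gene was called at a gap of 25 points between the libraries of the conditions. Single values were compared with the exact two-sided permutation test. The scripts were tested on simulated peaks. Groups and replicate numbers came from the sample titles. The members and lists were chosen with earlier results of these data known. Genes were named when called, or when among the 5 highest or 5 lowest in gene body H3K9me3, the 5 highest in H3K4me3, or carrying both marks, and FPR1, FPR2, FPR3, HAS1, PPP2R1A and ZEB1 were named throughout. Genes named for equal covered length, for fold enrichment or for their sequence were chosen after their values were seen. Sequences came from hg38 and RefSeq.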

Additional observations from a re-analysis of the deposited data

How the results depend on the processing

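The size of the H3K9me3 difference depended on the q threshold and on 1 library, while its direction did so at only 1 setting. The mean difference over the 40 genes (23.4 points for TSS ± 10 kb, 24.8 for gene bodies) was 2.83 and 2.32 points in the full lists, 48.1 and 46.5 at q ≤ 0.01, 53.6 and 55.4 at equal covered length, and 0 and 0 at q ≤ 0.001, where no gene kept a peak in any library. Leaving out 1 library gave 5.22 to 41.6 points for TSS ± 10 kb and 3.36 to 46.2 for gene bodies. The count called higher over TSS ± 10 kb (2) was 0 in the full lists, 14 at q ≤ 0.01, 0 at q ≤ 0.001, 19 at equal covered length, 0 at a gap of 50 points, 0 for TSS ± 25 kb and 3 to 21 with 1 library left out, the highest without No gRNA replicate 2. The count over gene bodies (0) was 7 at q ≤ 0.01 and 17 at equal covered length. No setting with all 4 libraries called any of the genes lower. For q ≤ 0.01, q ≤ 0.001, the gap of 50 points and TSS ± 25 kb no share of all genes is given. The counts at these settings are therefore not read as particular to the 40 genes. With 1 library left out a condition has only 1 library, so no counts are given there. The interval difference (19.21 points) was -0.0129 points at q ≤ 0.001 and 4.07 to 34.3 with 1 library left out. The finger exon lay 9.59 points above the start on average over the 4 libraries, and 0 points at q ≤ 0.001. For H3K4me3 the mean difference by label was -3.10 points, 15.6 in the full lists, 6.76 at equal covered length, and -33.1 to 26.8 with 1 library left out, positive without All gRNA replicate 2 (12.1) or No gRNA replicate 2 (26.8). Its count called higher (0) was 3 in the full lists, 1 at equal covered length and 0 to 6 with 1 library left out, and its count called lower (0) was 0 to 8.

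Of 133 alternatives to the 11 summary results, 101 stayed the same, 27 moved and 5 reversed, and of 360 for 40 single-gene results, 282 stayed, 78 moved and 0 reversed. Libraries with the same replicate number did not deviate together across genes (correlation -0.01 for H3K9me3 and -0.33 for H3K4me3 at q ≤ 0.05), so the number was not taken as a pairing. With the replicate block the mean H3K9me3 differences stayed at 23.4 and 24.8 points, the interval difference at 19.21 and the calls at 2 and 0. For H3K4me3 the crossed pairing, chosen after seeing the data, called 0 higher and 0 lower. Length-weighted fold, which needs no q threshold but covers only peaks of the full lists, was also added after seeing the data. Without depth, a peak missing from 1 library may be too few reads or less mark, and which was not tested.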
